A study of Mus musculus with 10 samples.

Results

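The genes described here are the 10 members of the route from the receptor of anti-Müllerian hormone (AMH) to the nucleus: the receptors Amhr2, Acvr1, Bmpr1a and Bmpr1b, the signal carriers Smad1, Smad5 and Smad4, the inhibitors Smad6 and Smad7, and the target gene Id1. They were taken by symbol from a table of 55335 Ensembl genes with no filter on their level, and all 10 were found. The hearts came from wild-type male offspring of dams given either AMH (the PAMH group, for prenatal AMH, a mouse model of polycystic ovary syndrome) or phosphate-buffered saline (the control group) while pregnant, with 5 samples in each group. Nothing apart from the dam's injection distinguishes the groups in the labels, and no source used here gives the strain, dose, days of injection or age at collection. Which samples share a litter or a dam is not stated either, so each p-value reflects sample-to-sample spread only, part of which may be technical.

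AMH belongs to the transforming growth factor beta superfamily and is best known for causing the regression of the Müllerian ducts in the male fetus. It binds its own type II receptor, AMHR2, which then joins type I receptors that it shares with the bone morphogenetic proteins (BMPs): ACVR1, BMPR1A or BMPR1B. The activated type I receptor phosphorylates SMAD1, SMAD5 and SMAD9, these bind SMAD4, and the complex enters the nucleus and switches on genes such as Id1, Smad6 and Smad7, of which the last pair encode inhibitors that dampen the same signal. In the heart, BMP signalling is required for the formation of the chambers and valves.

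The level of a gene is given in FPKM (fragments scaled to transcript length and to the library's total), so levels may be compared between genes per unit of length. The read depth behind the values is unknown, and a value of 0 means only that the gene is listed at 0. The hearts had the muscle genes of the ventricle at high levels (8 markers summed to between 8887 and 14786 FPKM). Of 5 atrial markers, Nppa had 46.5 to 129 FPKM in control and 78.4 to 217 FPKM in PAMH samples without passing the test (limma adjusted p = 0.150). Sln and Bmp10 stayed under 0.06 FPKM, Myl4 had 0.0915 to 0.306 FPKM, and Myl7 was listed at 0 in 8 samples, with 1.02 and 0.962 FPKM in PAMH replicates 3 and 5. The share of the FPKM sum held by mitochondrial genes was 55.3% to 56.8% in control and 51.5% to 56.6% in PAMH samples. PAMH replicates 1, 2, 4 and 5 lay below every control, at 53.6%, 54.5%, 51.5% and 54.6%. The exact 2-sided permutation p was 0.03175, and the Benjamini-Hochberg adjusted p of that test was 0.0952. PAMH replicate 4 stood apart, with 859 FPKM of hemoglobin genes where the other 9 samples had 97.1 to 436 FPKM, and with the fewest genes above 0 (16113, where the others had 18037 to 21097). Of 8 epicardial and mesothelial markers, both of the tested ones (Upk3b and Aldh1a2) were higher in PAMH hearts, and the summed level was 1.71 to 2.75 FPKM in control and 5.36 to 10.6 FPKM in PAMH samples. The smooth muscle and pericyte list also stood apart (112 to 147 against 155 to 206 FPKM), through Acta2, the only 1 of its 7 tested genes past the threshold. Of 8 macrophage markers Cd68 was higher (2.86 to 3.84 against 4.14 to 6.15 FPKM, limma adjusted p = 0.0187), while the summed level overlapped (179 to 221 against 176 to 225 FPKM). The part of these differences in the results below was not tested. In bulk tissue, a change in the number of cells of a type and a change in RNA per cell cannot be told apart.

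The upstream sequences of the members differed in their content of CG dinucleotides, the sites of DNA methylation. RefSeq promoters (build GRCm38.p6, the same coordinates as mm10) were matched for 7 of the 10 members: Amhr2, Acvr1, Bmpr1a, Bmpr1b, Smad1, Smad5 and Smad6. The 250 bases before an annotated RefSeq start are shown for 2 receptors with almost no signal in the heart and for 2 Smad genes with a clear signal, each read 5′ to 3′ on the strand of the gene, with every CG dinucleotide in capitals. The Bmpr1b start used lies inside the GENCODE gene, which extends further upstream to 142169425.
Amhr2, chr15:102445117-102445366, plus strand: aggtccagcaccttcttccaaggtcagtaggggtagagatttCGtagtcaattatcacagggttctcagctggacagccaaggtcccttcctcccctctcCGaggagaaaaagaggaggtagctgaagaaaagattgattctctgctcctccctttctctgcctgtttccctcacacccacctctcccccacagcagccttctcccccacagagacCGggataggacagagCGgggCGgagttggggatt
Bmpr1b, chr3:141982265-141982514, minus strand: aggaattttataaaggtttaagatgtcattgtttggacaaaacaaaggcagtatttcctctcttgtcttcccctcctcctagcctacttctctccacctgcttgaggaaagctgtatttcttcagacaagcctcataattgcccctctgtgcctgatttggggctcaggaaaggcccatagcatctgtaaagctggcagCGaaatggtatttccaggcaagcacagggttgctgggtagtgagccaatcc
Smad5, chr13:56702760-56703009, plus strand: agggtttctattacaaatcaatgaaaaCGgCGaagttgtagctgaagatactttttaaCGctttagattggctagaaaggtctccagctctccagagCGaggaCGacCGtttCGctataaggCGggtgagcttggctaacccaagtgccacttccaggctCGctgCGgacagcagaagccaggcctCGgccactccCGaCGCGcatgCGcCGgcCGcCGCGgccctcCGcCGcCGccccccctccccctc
Smad6, chr9:64022060-64022309, minus strand: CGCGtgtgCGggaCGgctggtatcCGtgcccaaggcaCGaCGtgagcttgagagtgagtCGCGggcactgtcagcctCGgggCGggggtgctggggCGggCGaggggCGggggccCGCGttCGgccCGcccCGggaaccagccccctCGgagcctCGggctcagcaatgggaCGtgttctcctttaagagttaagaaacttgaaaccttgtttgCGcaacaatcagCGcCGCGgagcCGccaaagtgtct
The Amhr2 window held 5 CG dinucleotides and the Bmpr1b window 1, with 5 in the windows of each of the 2 other Bmpr1b starts. The Smad5 and Smad6 windows held 22 and 27, and those of Smad1, Bmpr1a and Acvr1 held 25, 36 and 46. The windows shown hold no GENCODE exon of their gene, whereas 90 bases of the Smad1 window, 141 of the Bmpr1a window and all 250 of the Acvr1 window lie in such exons, so these 3 are not purely upstream sequence. Over 32851 promoter windows of this length the median was 6, with quartiles of 2 and 16. The same split ran through the table, since genes averaging 1 FPKM or more had a median of 18 (6917 genes) and those under 1 FPKM a median of 4 (13628 genes). At most 5 CG dinucleotides were found for 9.48% of the former and 55.3% of the latter, where the window richest in CG was taken for each gene. This is a description of base composition and of level, and no methylation was measured.

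The AMH receptor itself was close to absent from these libraries. Amhr2, the only receptor dedicated to AMH (chromosome 15, 102445367 to 102454633, plus strand), was listed at 0.0186, 0.0459, 0.0747, 0 and 0 FPKM in control replicates 1 to 5, and at 0 in each of the PAMH samples. The ligand gene Amh had 0.0170 FPKM in control replicate 1, 0.0453 FPKM in PAMH replicate 3 and 0 in the other 8. Bmpr1b, the type I receptor with the narrowest distribution (chromosome 3, 141837136 to 142169425, minus strand), had 0.0188, 0.0152, 0.0252, 0.0142 and 0 FPKM in control and 0, 0.00847, 0.00835, 0 and 0.0463 FPKM in PAMH replicates. Both receptors therefore lay in every sample more than 10-fold below Smad1, the lowest of the remaining members, and the groups overlapped for both. With no filter on low values neither passed the test (limma adjusted p = 0.452 for Amhr2 and 0.933 for Bmpr1b). Of 8 genes that mark the gonadal cells known for AMH reception, Fshr, Cyp19a1 and Nr5a1 were listed at 0 throughout and Foxl2 reached 0.0311 FPKM. Star had 0.219 to 0.686 FPKM and Sox9 0 to 0.534 FPKM, and Inha and Gata4 were above the minimum for testing and did not pass. Gata4 was close to the threshold, at 11.9 ± 0.788 FPKM in control and 16.6 ± 3.11 FPKM in PAMH samples (log2 fold change 0.43, limma adjusted p = 0.0538). Which cells of the heart held the Gata4 RNA was not tested, so its level is no sign of gonadal cells.

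The other type I receptors were expressed, and their averages were higher in PAMH hearts without passing the test. Acvr1, which also serves activins and BMPs (chromosome 2, 58388644 to 58567157, minus strand), had 1.51, 1.53, 1.15, 1.20 and 1.24 FPKM in control replicates 1 to 5 and 1.90, 1.88, 1.75, 2.53 and 1.46 FPKM in PAMH replicates 1 to 5. PAMH replicate 5 lay within the control range and the other 4 PAMH samples above it. The log2 fold change of FPKM + 1 was 0.32 (95% interval 0.10 to 0.53, limma adjusted p = 0.0760). Bmpr1a, the main BMP type I receptor of the heart muscle (chromosome 14, 34410734 to 34503341, minus strand), had 8.38, 7.53, 8.58, 8.99 and 8.36 FPKM in control and 12.0, 11.3, 10.7, 7.36 and 11.4 FPKM in PAMH replicates. PAMH replicate 4 had the lowest value of all 10 samples and the other 4 PAMH samples the highest.

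For Bmpr1a the result moved with that single library and also with the scaling. Over all samples the means were 8.37 ± 0.530 and 10.6 ± 1.84 FPKM (SD, n = 5 each) and the log2 fold change was 0.29 (95% interval 0.04 to 0.53, limma adjusted p = 0.141). Without PAMH replicate 4 the log2 fold change was 0.40 (limma adjusted p = 0.00720), and with sample weights it was 0.37 (limma adjusted p = 0.00947). These weights were estimated from the scatter of each sample in the same FPKM values. They hold no separate measure of RNA or library quality, so the weighted fit is not independent evidence. With all 10 samples kept, the log2 fold change was 0.20 under median ratio scaling (limma adjusted p = 0.351) and 0.18 under quantile normalization (limma adjusted p = 0.448). Leaving out PAMH replicate 4 also raised the calls over all tested genes, from 584 to 680. In PAMH replicate 4 the tested genes with the shortest exon sequence were above the rest of its group (median log2 deviation 0.15, exons of up to 2222 bases) and those with the longest were below it (-0.08, exons of 6094 bases or more). PAMH replicate 2 had a trend the other way, from -0.06 for the shortest exons to 0.09 for the longest. The annotated exons of Bmpr1a cover 6351 bases, and the part of the trend of PAMH replicate 4 in its low value was not tested. Of those exon bases 4.57% are shared with the antisense gene Gm17110, which averaged 0.0837 FPKM, and reads there could come from either gene, since no strand setting is stated.

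Acvr1, Bmpr1a and Bmpr1b summed to 9.08 to 10.2 FPKM in control and to 12.5 to 13.9 FPKM in PAMH samples except replicate 4, which had 9.89 FPKM. The ratio of Bmpr1a to Acvr1 was 4.93 to 7.47 in control samples and 6.02 to 7.78 in PAMH samples, with 2.90 in PAMH replicate 4. In PAMH replicate 4 Acvr1 was at its highest while Bmpr1a was at its lowest.

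**Figure D1:**
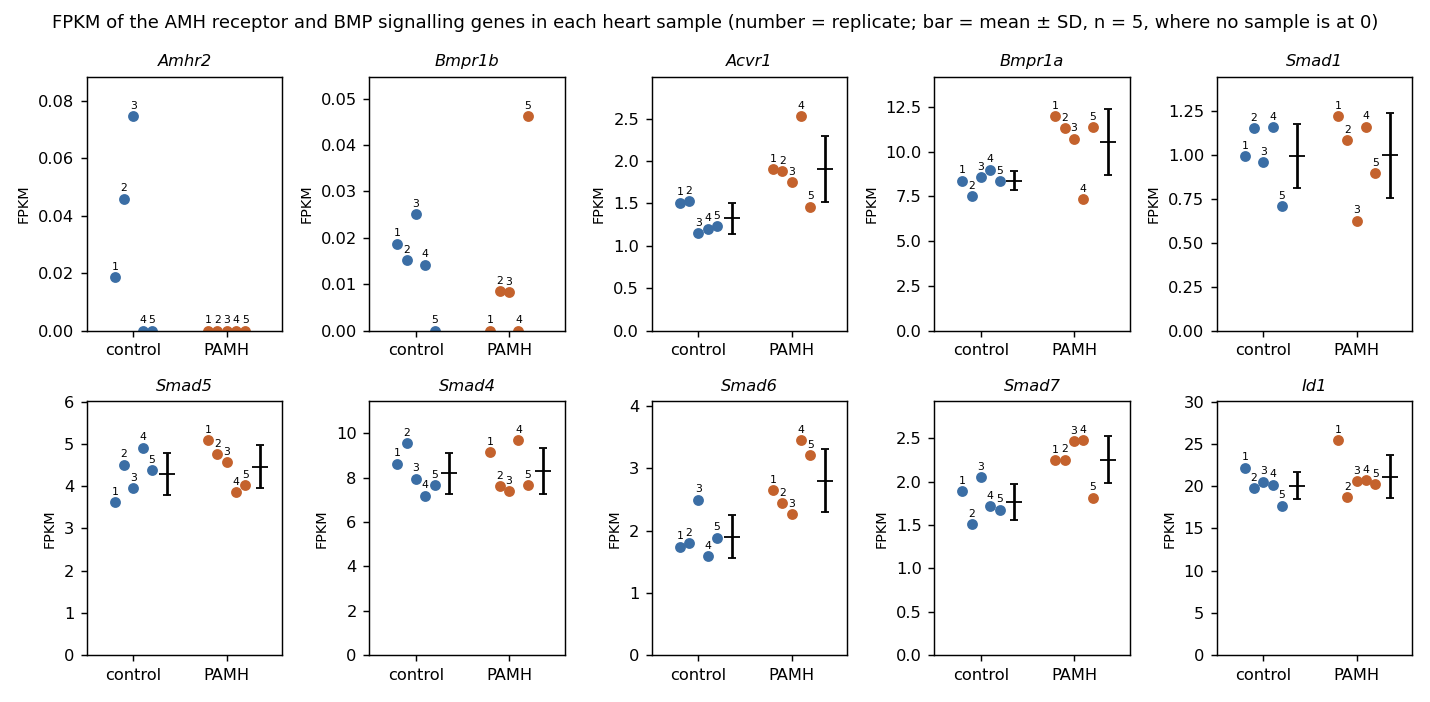
Level of each of the 10 genes in FPKM (vertical axis, from 0) in 5 control (blue) and 5 PAMH (orange) hearts; each point is a sample with its replicate number, and bars show mean ± SD (n = 5) for genes with no sample listed at 0. Amhr2 and Bmpr1b stay under 0.08 FPKM, PAMH replicate 4 is the lowest sample for Bmpr1a and the highest for Acvr1 and Smad6, and the groups overlap for every gene.

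The carriers of the signal had nearly equal levels in the groups. Smad5, the more abundant of the BMP-regulated Smads here (chromosome 13, 56703010 to 56742377), had 3.63, 4.52, 3.96, 4.92 and 4.38 FPKM in control and 5.09, 4.76, 4.57, 3.86 and 4.03 FPKM in PAMH replicates, with a log2 fold change of 0.05 (95% interval -0.14 to 0.24, limma adjusted p = 0.772). Smad1, its close relative (chromosome 8, 79338395 to 79399518), had 0.992, 1.15, 0.956, 1.16 and 0.708 FPKM in control and 1.22, 1.08, 0.625, 1.16 and 0.894 FPKM in PAMH replicates. Its mean of 0.994 FPKM fell just short of the minimum of 1 FPKM for testing, and with no filter its log2 fold change was -0.0015 (95% interval -0.23 to 0.23, limma adjusted p = 0.996). Smad4, the partner shared with the TGF-beta branch (chromosome 18, 73639009 to 73703780), had 8.63, 9.57, 7.95, 7.19 and 7.66 FPKM in control and 9.14, 7.62, 7.37, 9.69 and 7.67 FPKM in PAMH replicates, with a log2 fold change of 0.01 (95% interval -0.19 to 0.22, limma adjusted p = 0.948). For all 3 genes the values were interleaved between the groups. A missed threshold does not show equality, and the intervals leave room for differences of up to about 0.24 in log2(FPKM + 1). That scale understates changes of low genes, so for Smad1, at 0.994 FPKM, the room left in FPKM itself is wider. The third BMP-regulated Smad gene, Smad9, was far lower, between 0 and 0.211 FPKM.

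The inhibitory Smads had higher averages in PAMH hearts without passing the test, and of all members Smad6 came closest to the threshold. Smad6, which blocks the BMP-regulated Smads in particular (chromosome 9, 63953076 to 64022059), had 1.74, 1.80, 2.50, 1.59 and 1.89 FPKM in control and 2.65, 2.44, 2.27, 3.46 and 3.21 FPKM in PAMH replicates. Control replicate 3 overlapped the PAMH samples, and the other 4 controls lay below them all. The log2 fold change was 0.39 (95% interval 0.15 to 0.62, limma adjusted p = 0.0530). It passed in 5 of 20 alternatives, among them the omission of control replicate 3 (limma adjusted p = 0.0432) or of PAMH replicate 3 (limma adjusted p = 0.0260) and rescaling of each sample to the same FPKM sum (limma adjusted p = 0.0383), and adjusted p ranged up to 0.146. Smad7, which blocks BMP and TGF-beta receptors alike (chromosome 18, 75367529 to 75395935), had 1.89, 1.51, 2.05, 1.72 and 1.68 FPKM in control and 2.25, 2.25, 2.47, 2.48 and 1.82 FPKM in PAMH replicates. Only PAMH replicate 5 fell inside the control range. Its log2 fold change was 0.23 (95% interval 0.05 to 0.41, limma adjusted p = 0.111), and it passed in none of 20 alternatives (limma adjusted p 0.0693 to 0.294).

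The sample with the least Smad7 among the PAMH hearts, replicate 5, had the second highest Smad6, so the ratio of Smad6 to Smad7 spread from 0.918 to 1.77 in PAMH samples against 0.920 to 1.22 in controls. Smad6 and Smad7 together summed to 3.64, 3.31, 4.55, 3.30 and 3.57 FPKM in control and 4.90, 4.69, 4.74, 5.93 and 5.03 FPKM in PAMH replicates. These sums did not overlap, a description of a pair put together with its values known. For the ratio of the inhibitory pair to Smad1 plus Smad5 the groups did overlap, at 0.544 to 0.924 in control and 0.775 to 1.182 in PAMH samples.

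Id1, the target gene used most often as a readout of BMP signalling (chromosome 2, 152736251 to 152737410, plus strand), did not differ detectably. It had 22.2, 19.8, 20.6, 20.2 and 17.7 FPKM in control and 25.5, 18.7, 20.6, 20.7 and 20.3 FPKM in PAMH replicates. PAMH replicate 1 was the highest of all samples and PAMH replicate 2 the second lowest, and the others lay between. The log2 fold change was 0.07 (95% interval -0.13 to 0.26, limma adjusted p = 0.684), and its sign turned under median ratio scaling (-0.03) and quantile normalization (-0.07). Id1 was also the most evenly expressed with Bmpr1a in control hearts, with coefficients of variation of 8.06% and 6.34%, against 18.4% for Smad6. Id3, a sister gene that responds to the same signal, had 12.8 ± 0.894 and 14.5 ± 0.949 FPKM (log2 fold change 0.17, 95% interval 0.01 to 0.32, limma adjusted p = 0.182), and Id2 had 1.59 ± 0.298 and 1.86 ± 0.358 FPKM (limma adjusted p = 0.432).

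Of the 7 members above the minimum for testing, none passed (limma adjusted p under 0.05, Benjamini-Hochberg over 9439 genes), where 6.19% of all tested genes passed and 4.95% were called higher. At an unadjusted p under 0.05 there were 4 (Smad6, Acvr1, Smad7 and Bmpr1a), where 24% of all tested genes were under that limit. All 7 log2 fold changes were positive, as were 67.3% of all tested genes, and their median was 0.23 against 0.07 for all genes. Under median ratio scaling and under quantile normalization 4 of the 7 were positive (Smad6, Acvr1, Smad7 and Bmpr1a), with medians of 0.17 and 0.18 against 0.00 for all genes. With sample weights 3 members passed, Acvr1 (limma adjusted p = 0.04645), Bmpr1a and Smad6. No member had groups that did not overlap, against 8.44% of tested genes (6.74% higher).

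**Figure D2:**
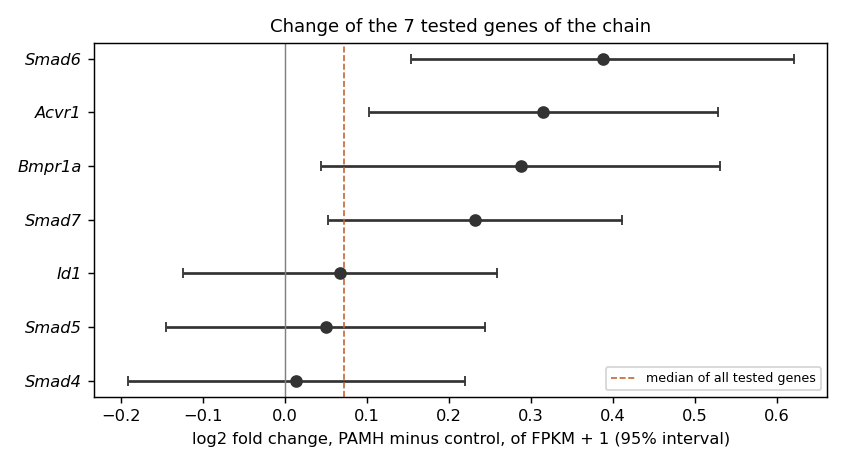
Log2 fold change (horizontal axis, PAMH minus control, of FPKM + 1) of the 7 tested genes, with unadjusted 95% intervals from limma (n = 5 per group); the dashed line is the median of all 9439 tested genes, 0.07. The intervals of Smad6, Acvr1, Bmpr1a and Smad7 lie above 0, those of Id1, Smad5 and Smad4 span it, and no gene passed after adjustment.

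**Figure D3:**
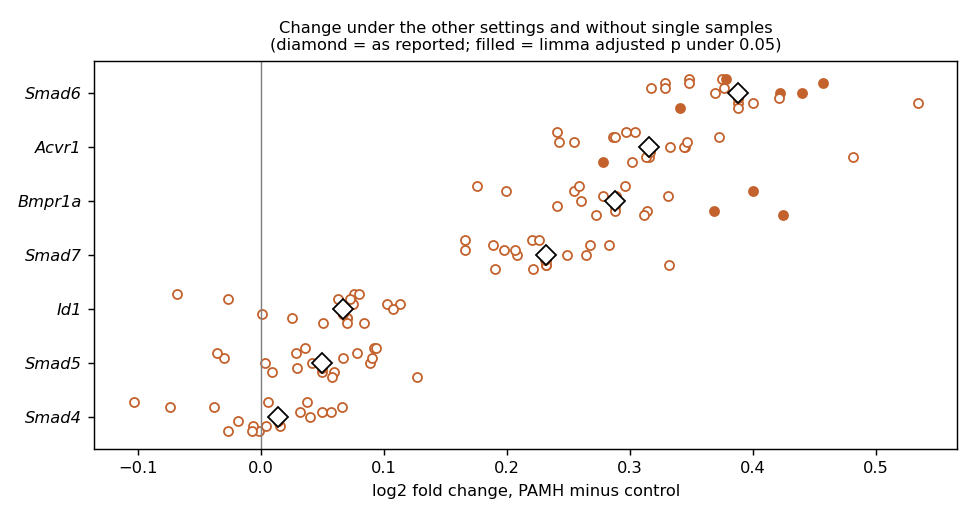
Log2 fold change of the same 7 genes (horizontal axis, PAMH minus control) as reported (diamond) and under each alternative setting or sample left out (circles); filled symbols have a limma adjusted p under 0.05. Smad6 is filled in 5 alternatives, Bmpr1a in 3 and Acvr1 in 1, and circles of Smad4, Smad5 and Id1 lie on both sides of 0.

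The order of the members' levels was nearly the same in the groups. Id1 was highest in every sample, at the 88.1st percentile of tested genes, followed by Bmpr1a and Smad4, whose ranges overlapped. Smad5 came next and was clear of its neighbours on either side in both groups. Smad6, Smad7 and Acvr1 followed with overlapping ranges. Acvr1 overlapped Smad1 in control samples (1.15 FPKM and up, against at most 1.16 FPKM) and lay above it in PAMH samples (1.46 FPKM and up, against at most 1.22 FPKM). Amhr2 and Bmpr1b shared the bottom of the order.

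The genes with the profile most like that of a member over the 10 samples were found by the mean absolute difference of their centred log2 values. For Id1 these were Lrrc57, Atp6v1g1 and Arl4a, at 0.043 to 0.053, where the median over all tested genes was 0.16. For Smad6 they were Coa4, the pseudogene Pdcd5-ps and the ribosomal protein gene Rpl9, at 0.046 to 0.071 with a median of 0.22. For Smad7 they were Dram1, Asb5 and the pseudogene Rpl17-ps5, at 0.051 to 0.059 with a median of 0.17. No gene of the wider BMP lists was among them. With 43 such genes among 9439 tested and only 3 taken per member, this absence cannot show whether pathway genes move together. The 2 pseudogenes may share reads with their parent genes, so their values are uncertain.

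The wider pathway was read from 6 lists, of which 82 genes are counted here: 43 were above the minimum for testing, 3 were higher in PAMH hearts and 40 did not pass, a share of calls near the 6.19% of all tested genes (4.95% higher). Among 15 ligands of the BMP branch, AMH included, only Bmp6 and Bmp4 were tested, and neither passed. Bmp6, which also sets the body's iron balance, had 4.80 ± 0.381 and 4.86 ± 0.597 FPKM (log2 fold change 0.01, 95% interval -0.17 to 0.20, limma adjusted p = 0.950). Of its exon bases 5.74% are shared with Txndc5 on the opposite strand, which averaged 6.61 FPKM, and reads there could come from either gene. Bmp4, a ligand required for heart development, had 1.40 ± 0.220 and 1.36 ± 0.325 FPKM (limma adjusted p = 0.869). Bmp7 had 0.250 to 0.449 FPKM in control and 0.291 to 0.622 FPKM in PAMH samples, below the filter. The list's median log2 fold change was -0.01.

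Of 9 further receptors and co-receptors 8 were tested and none passed, with a median log2 fold change of 0.18 and 6 of the 8 positive, while 4 were under an unadjusted p of 0.05. Over all tested genes the median was 0.07, 67.3% were positive and 24% were under that limit. Hjv, the co-receptor hemojuvelin that binds BMPs at the membrane of muscle and liver cells, was by far the most abundant, at 88.0 ± 7.52 and 108 ± 20.2 FPKM (log2 fold change 0.28, 95% interval 0.02 to 0.53, limma adjusted p = 0.173), and passed without PAMH replicate 3 (limma adjusted p = 0.0344). Its highest value was in PAMH replicate 4, without which the log2 fold change was 0.19 (limma adjusted p = 0.265). Eng, the endothelial co-receptor endoglin, had 16.8 ± 2.14 and 19.2 ± 4.06 FPKM (limma adjusted p = 0.464). Acvrl1, the endothelial type I receptor, had 4.31 ± 0.742 and 5.63 ± 0.768 FPKM (log2 fold change 0.33, 95% interval 0.08 to 0.57, limma adjusted p = 0.103). The type II receptor gene Bmpr2, named after its values were seen, had 3.42 ± 0.482 and 3.28 ± 0.727 FPKM (limma adjusted p = 0.811). Beside these genes, 10 endothelial markers summed to 94.9 to 117 FPKM in control and 84.2 to 105 FPKM in PAMH samples, with Cldn5 lower and the other 9 not past the test.

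None of the 5 tested secreted antagonists and binders passed, and the median log2 fold change of that list was 0.14. Its most abundant genes were Fstl1, at 12.9 ± 0.554 and 14.5 ± 2.27 FPKM, Twsg1, at 9.64 ± 0.389 and 10.1 ± 0.735 FPKM, and Nbl1, at 5.91 ± 0.746 and 5.78 ± 0.388 FPKM (limma adjusted p 0.398, 0.607 and 0.9001). Fstl3 is a binder of activins and BMPs and was named after its values were seen. It had 0.728 to 0.902 FPKM in control and 1.08 to 2.58 FPKM in PAMH samples, the highest in replicate 5. The groups did not overlap, as for 6.74% of all tested genes in the same direction. The log2 fold change of 0.40 did not pass (limma adjusted p = 0.0878). Dand5, an antagonist of the Nodal and BMP ligands likewise named after its values were seen, had 3.18 to 3.61 FPKM in control and 3.50 to 5.48 FPKM in PAMH samples and was closer to the threshold (log2 fold change 0.33, limma adjusted p = 0.0587). Both passed with sample weights and without PAMH replicates 3 and 4 together, and Dand5 also without PAMH replicate 3. Noggin (Nog, chromosome 11, 89300638 to 89302332), a secreted protein that captures BMPs before they reach their receptors, was below the filter and is named here after its values were seen. It had 0.118, 0.108, 0.0589, 0.0986 and 0.0939 FPKM in control replicates 1 to 5, 0.0299 and 0.0294 FPKM in PAMH replicates 2 and 3, and was listed at 0 in PAMH replicates 1, 4 and 5. All PAMH values were below all control values, which held for 0.745% of the 17319 genes above 0 and below the filter. With no filter it was the one gene of this list that passed (log2 fold change -0.11, 95% interval -0.15 to -0.08, limma adjusted p = 0.0205), where 0.987% of 26758 genes passed and 0.254% were lower. PAMH replicates 4 and 5 also had the fewest genes above 0, and the part of that in these low values was not tested.

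Among 14 intracellular regulators 12 were tested, 2 were higher and 10 did not pass, with a median log2 fold change of 0.08. Of all tested genes 4.95% were higher, and the median was 0.07. Ctdnep1, a nuclear envelope phosphatase reported to act on BMP receptors, had 22.5, 24.0, 22.4, 21.0 and 21.2 FPKM in control and 31.6, 29.3, 24.3, 35.9 and 30.6 FPKM in PAMH replicates, with all PAMH values above all control values, as for 6.74% of all tested genes. Its log2 fold change was 0.42 (SE 0.09, limma adjusted p = 0.0212). Its annotated exons cover 2182 bases, and its highest value was in PAMH replicate 4, which lay above its group for exons that short. Without that sample the log2 fold change was 0.36 (limma adjusted p = 0.0255), and the part of the length trend in it was not tested. Ppm1a, a phosphatase that removes the activating phosphates of Smads, had 8.44, 8.46, 8.35, 8.22 and 8.59 FPKM in control and 10.6, 11.8, 9.48, 10.2 and 9.90 FPKM in PAMH replicates. Every PAMH value lay above all control values, with a log2 fold change of 0.27 (SE 0.07, limma adjusted p = 0.0372). Both calls were close to the threshold: that of Ctdnep1 was lost in 8 of 21 alternatives (limma adjusted p up to 0.0653) and that of Ppm1a in 13 of 21 (limma adjusted p up to 0.187). Leaving out single samples was enough to lose a call, in fits where the calls over all tested genes also fell, from 584 to between 278 and 464. Ctdnep1 no longer passed without control replicate 1, 3, 4 or 5 or PAMH replicate 1 or 5 (limma adjusted p 0.0514 to 0.0612). Ppm1a no longer passed without any 1 control or PAMH replicate 1, 2 or 5 (limma adjusted p 0.0573 to 0.0928). The log2 fold changes in these fits stayed near those reported, at 0.40 to 0.43 for Ctdnep1 and 0.23 to 0.29 for Ppm1a. With all samples kept, Ppm1a also missed the threshold under median ratio scaling (log2 fold change 0.18, limma adjusted p = 0.118). The same held under quantile normalization (0.16, limma adjusted p = 0.187) and with mitochondrial genes left out and rescaling (0.26, limma adjusted p = 0.0689). Ctdnep1 passed in each of these (limma adjusted p 0.0205 to 0.0401). The abundant Stub1, a ubiquitin ligase, and Tob1, an antiproliferative factor, had log2 fold changes of 0.23 and -0.08 (limma adjusted p = 0.187 and 0.736). Stub1 shares 42.3% of its exon bases with Jmjd8 on the opposite strand, which averaged 2.79 FPKM. Ctdnep1 shares 3.21% with Elp5, also on the opposite strand, which averaged 6.78 FPKM. With no strand setting stated, reads there could come from either gene.

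Of 12 further target genes 6 were tested and 1 passed, where 6.19% of all tested genes passed and 4.95% were higher. Nkx2-5, the cardiac homeobox factor whose onset in the embryo depends on BMP, had 19.7, 20.3, 19.8, 18.6 and 18.1 FPKM in control and 29.8, 33.6, 22.2, 42.4 and 27.5 FPKM in PAMH replicates. The groups did not overlap, as for 6.74% of all tested genes in the same direction. PAMH replicate 4 was highest and PAMH replicate 3 nearest to the controls, and the log2 fold change was 0.63 (SE 0.13, limma adjusted p = 0.0181). The annotated exons of Nkx2-5 cover 1719 bases. Tested genes with exons of up to 2222 bases lay above the rest of the group in PAMH replicate 4 (median log2 deviation 0.15). Without that sample the log2 fold change of Nkx2-5 was 0.51 (limma adjusted p = 0.0146), and the part of the length trend in it was not tested. The call was lost without control replicate 5 (log2 fold change 0.61, limma adjusted p = 0.0501) and without a filter (limma adjusted p = 0.0711). None of 8 ventricular muscle markers passed, and their sum was 10054 to 12541 FPKM in control and 8887 to 14786 FPKM in PAMH samples, highest in PAMH replicate 4. Tbx20, a T-box factor of the heart, had 3.99 ± 0.374 and 4.72 ± 0.393 FPKM (limma adjusted p = 0.147).

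In the TGF-beta and activin branch, none of the 10 tested genes counted here passed, at a median log2 fold change of 0.09 with 8 of the 10 positive. None was at an unadjusted p under 0.05. Over all tested genes the median was 0.07, 67.3% were positive and 24% were under that limit. Pmepa1, a TGF-beta target, had 4.22 ± 0.0525 and 4.82 ± 0.620 FPKM (log2 fold change 0.15, limma adjusted p = 0.268), and the receptor gene Tgfbr2 had 4.15 ± 0.238 and 4.45 ± 0.474 FPKM (limma adjusted p = 0.570). The ligand gene Tgfb3 had 3.62 ± 0.275 and 4.07 ± 0.576 FPKM (log2 fold change 0.13, 95% interval -0.06 to 0.32, limma adjusted p = 0.389).

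**Figure D4:**
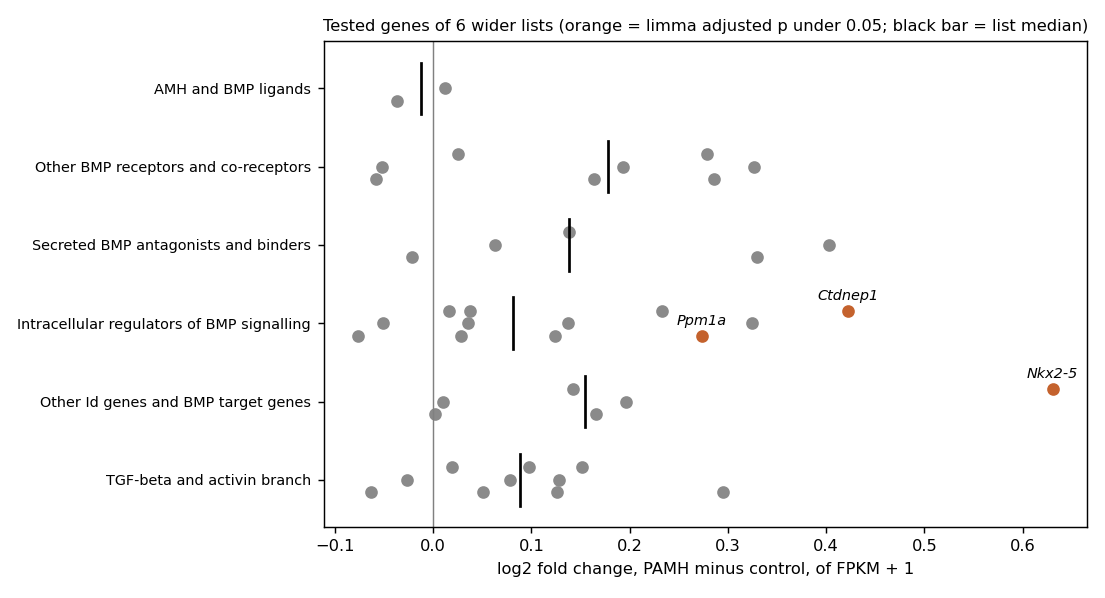
Log2 fold change (horizontal axis, PAMH minus control, of FPKM + 1) of the 43 tested genes counted from 6 wider lists; each point is a gene, orange where the limma adjusted p is under 0.05, and the black bar is the list median. Of the 43 genes, 3 are orange: Ctdnep1, Ppm1a and Nkx2-5, all to the right of 0.

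**Figure D5:**
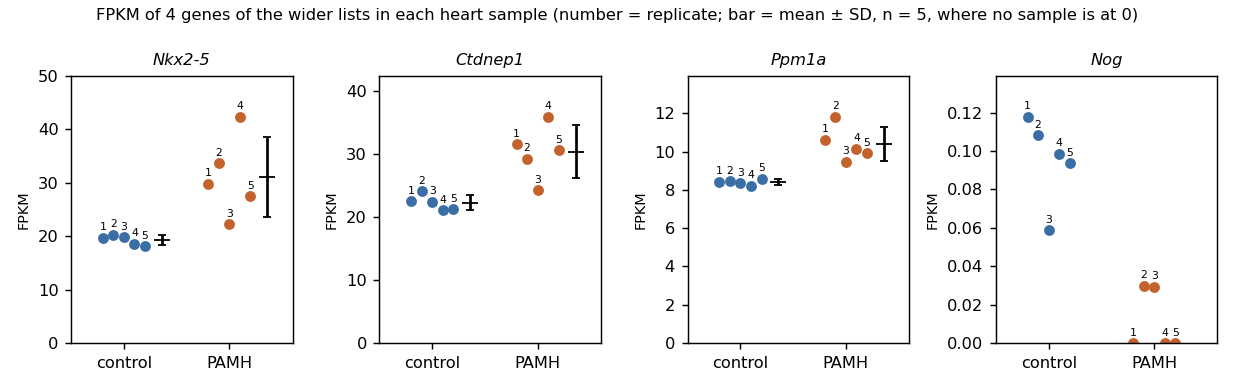
Level in FPKM (vertical axis, from 0) of Nkx2-5, Ctdnep1, Ppm1a and Nog in 5 control (blue) and 5 PAMH (orange) hearts, a point per sample with its replicate number and bars of mean ± SD where no sample is listed at 0. The groups do not overlap in any of the 4 panels, but all 4 genes passed a fit (Nog only with no filter), so this is not separate evidence. Groups were apart for 6.74% of tested genes (higher) and 0.745% of genes above 0 and below the filter (lower). PAMH replicate 3 is the PAMH sample nearest to the controls for Nkx2-5, Ctdnep1 and Ppm1a. Its tested genes also lay below the rest of its group at all exon lengths (median log2 deviations -0.13 to -0.01), and its mitochondrial share, 56.6%, was in the control range.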

How the data were processed

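RNA-seq of 10 heart samples of male mice (5 control, 5 PAMH) was analysed from the table of FPKM that the authors deposited for the whole series. Per the submitters' processing notes the build was mm10 and the tools, with no roles stated, were DESeq2 1.18.1, HTSeq 0.13.5, HISAT2 2.2.1, Trimmomatic 0.38, FastQC 0.11.9 and R 3.4.1. For the tool that made the FPKM, the annotation and the strand setting, the status is: not given in the sources used here. Values of 97.3% of genes with several annotated transcripts had over 6 decimals, against 0.612% of genes with a single transcript, so the gene values combine transcripts and reads could not be recovered. The depth is therefore unknown.

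Of 55335 identifiers 55154 matched GENCODE vM21. Values were taken as log2(FPKM + 1), which understates changes of low genes, and the 9439 genes averaging 1 FPKM or more were fitted with limma 3.58.1 in R 4.3.3 (group term, intensity trend, 2-sided, Benjamini-Hochberg, threshold 0.05). The fit was tested on data simulated with independent noise for each gene and no shifts of whole samples. That run cannot show how such shifts, or trends with exon length, affect the calls. Groups were taken from the titles, and columns from the descriptions. Of the lists, 1 gene is not reported here and is outside the counts. The members and lists were chosen with earlier results of these data known. Named genes were the members, list genes past the threshold, the 3 most abundant per list and the 3 nearest profiles of Id1, Smad6 and Smad7. Amh, Id2, Smad9, Bmpr2, Nog, Fstl3, Dand5 and single marker genes fall outside that rule and were named after their values were seen. Hjv appears as Hfe2 in GENCODE. In all, 21 alternatives were run. Figures were drawn with matplotlib 3.10.9.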

Additional observations from a re-analysis of the deposited data

Results flagged for a closer look

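In 63 groups of 5 samples examined with Dixon's test, 5 held a sample set apart from the others, where chance gives about 1 in 20. PAMH replicate 4 was low for Bmpr1a, at 7.36 FPKM where the rest of its group had 10.7 to 12.0 FPKM, and for Bmp4, at 0.791 FPKM against 1.39 to 1.602 FPKM. It was high for the summed hemoglobin genes, at 859 FPKM against 97.1 to 249 FPKM. PAMH replicate 5 was high for Bmpr1b, at 0.0463 FPKM against 0 to 0.00847 FPKM, and control replicate 3 was high for Bmp7, at 0.449 FPKM against 0.250 to 0.291 FPKM.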

How the results depend on the processing

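The count of 584 genes past the threshold was 264 without a filter, 1214 with sample weights, 1160 without PAMH replicates 3 and 4 together, and 278 to 1126 when single samples were left out (1126 without PAMH replicate 3, and 302, 278, 305, 297, 311 and 345 without control replicates 1, 3, 4 and 5 and PAMH replicates 1 and 5). Of the calls 80.0% were higher, against 50.7% under median ratio scaling (218 higher, 212 lower) and 48.8% under quantile normalization (234 higher, 246 lower). No chain member passed as reported; 1 did with rescaling to the same sum, 3 with sample weights, 2 (Bmpr1a and Smad6) without PAMH replicates 3 and 4 together, and 0 to 1 without single samples. The 3 wider genes past the threshold became 1 (Nog) without a filter, 5 with sample weights, 5 without PAMH replicates 3 and 4 together, and 0 to 5 without single samples (0 without control replicate 5, 1, Nkx2-5, without control replicate 1, 3 or 4 or PAMH replicate 1 or 5, and 5 without PAMH replicate 3). The fit with the replicate block gave 239 genes, no chain member and 1 wider gene (Nkx2-5). Same-numbered samples had correlations of -0.19 to 0.16 in their deviations, and 2 of 5 PAMH samples (replicates 1 and 2) matched their own number best. The labels state no pairing. These correlations cannot decide whether same-numbered samples share a litter or a batch.

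Signs turned only for small changes. Under median ratio scaling the log2 fold changes of Smad5, Smad4, Id1, Bmp6, Twsg1 and Tgfbr2 were -0.030, -0.074, -0.027, -0.069, -0.026 and -0.0019, and under quantile normalization -0.036, -0.10, -0.069, -0.074, -0.060 and -0.010. Without mitochondrial genes Smad4 was at -0.0017 and Bmp6 at -0.0020, and with rescaling to the same sum Nbl1 was at 0.019. With sample weights Bmp4 was at 0.039 and Tob1 at 0.011, and without PAMH replicates 3 and 4 together Smad4, Bmp4 and Tob1 were at -0.0076, 0.040 and 0.058. With single samples left out Smad4 ran from -0.038 to 0.065, Bmp6 from -0.035 to 0.057, Bmp4 from -0.075 to 0.059, Nbl1 from -0.069 to 0.026 and Tob1 from -0.185 to 0.0098. The cause was not tested. The unknown depth means that no detection limit can be set for Amhr2, Bmpr1b or Nog.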
